A study of Mus musculus with 4 samples.

Results

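Tiprl and 7 genes of the PP2A-type phosphatases were followed in mouse T helper 1 (Th1) cells that had been cultured with interleukin-16 (IL-16) or with its vehicle, phosphate-buffered saline (PBS). The 8 genes, of 26334 rows in the deposited table, were taken by symbol: Tiprl and Igbp1, whose proteins bind the phosphatase catalytic subunits; Ppp2ca, Ppp2cb, Ppp4c and Ppp6c, which encode those subunits; Ppp2r1a, which encodes the PP2A scaffold; and Ppme1, which encodes a PP2A methylesterase. The set was chosen by a measured value, because Tiprl was among the 7 genes called lower with IL-16, and the other genes were added for their part in the same enzymes. The IL-16 to PBS values of the 8 genes are therefore given as a description. All 8 were in the table, each as 1 row, and all passed the filter on low values (at least 1 FPKM in at least 2 libraries), which left 11882 rows.

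The cells were naive CD4+ T cells of mouse spleen, grown for 5 days under Th1 conditions with IL-16 (n = 2 libraries) or PBS (n = 2 libraries). The strain, sex and age of the mice, the dose of IL-16 and the Th1 cytokine mix are not stated in the labels. Polyadenylated RNA was sequenced in bulk, and the values were read as FPKM (fragments scaled to transcript length and library size), which permits levels of different genes to be set side by side. Library totals ran from 373924 to 391153 FPKM. The read depth is unknown and counting error cannot be stated. In bulk RNA, fewer cells that express a gene and less RNA per cell cannot be told apart.

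The source and cell type labels name peritoneal macrophages, whereas the titles name Th1 cells. A list of 10 T cell markers had a median of 189 and 185 FPKM with IL-16, against 169 and 178 FPKM with PBS. The median of 10 macrophage markers did not exceed 0.105 FPKM in any library, the highest of them, Cd68, reached 4.88 FPKM, and Fcgr1 was listed at 0 in all 4 libraries. The summed level of the T cell markers was 1923 and 2036 FPKM with IL-16, against 1756 and 1846 FPKM with PBS. The summed level of 6 B cell markers was 2.59 and 3.01 FPKM with IL-16, against 4.04 and 4.77 FPKM with PBS, that of 6 CD8 T and NK cell markers was 26.2 and 24.5 FPKM with IL-16, against 27.9 and 24.1 FPKM with PBS, and that of the macrophage markers was 5.13 and 6.26 FPKM with IL-16, against 4.86 and 5.53 FPKM with PBS. The part of these levels in the results was not tested.

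PP2A, PP4 and PP6 are serine/threonine phosphatases with closely related catalytic subunits. PP2A works as a trimer of a catalytic subunit, a scaffold and a variable regulatory subunit that steers it to its substrates, and methylation of the terminal leucine of the catalytic subunit by Lcmt1 favours some of these trimers, while Ppme1 removes the methyl group. TIPRL, the counterpart of yeast Tip41, and IGBP1 (alpha4), the counterpart of yeast Tap42, bind free catalytic subunits of all these enzymes outside the trimer: alpha4 protects them from degradation, and TIPRL holds them in a form of low activity. In T cells PP2A acts on antigen receptor and TOR signalling and is needed for regulatory T cell function.

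The ends of the 4 catalytic subunit coding sequences are shown because they encode the tail that Lcmt1 and Ppme1 act on, and because similar coding sequences can exchange reads. Each run gives the last 33 coding bases with the stop codon, from GENCODE vM21 transcripts (GRCm38), and capitals mark the codon of the terminal leucine.
Ppp2ca: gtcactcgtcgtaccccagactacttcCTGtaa
Ppp2cb: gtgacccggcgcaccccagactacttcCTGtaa
Ppp4c: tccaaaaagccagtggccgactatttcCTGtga
Ppp6c: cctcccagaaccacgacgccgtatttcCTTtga

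Ppp2ca and Ppp2cb shared 29 of these 33 bases, Ppp2ca shared 17 with Ppp4c and 14 with Ppp6c, and Ppp4c and Ppp6c shared 16. Over the whole coding sequence Ppp2ca and Ppp2cb were identical at 760 of 930 bases (81.72%), with a longest shared run of 25 bases. The other 5 pairs were identical at 61.71% to 64.74% of aligned bases, with longest shared runs of 12 to 16 bases.

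Tiprl was about 1.90-fold lower in IL-16 cultures. It was 11.7 and 11.8 FPKM in the IL-16 libraries, against 22.6 and 22.0 FPKM in the PBS libraries. Both IL-16 libraries lay below both PBS libraries, and the replicates of each group stood close together. The means were 11.7 ± 0.109 FPKM with IL-16 and 22.3 ± 0.445 FPKM with PBS (SD, n = 2 each), a difference of -0.87 in log2(FPKM + 1) (SE 0.076, limma). The gap between the IL-16 libraries was 0.018 in log2, against a median of 0.142 over all tested rows, and that between the PBS libraries was 0.039, against a median of 0.0864. The same difference was -0.86 with IL-16 replicate 2 alone and -0.88 with IL-16 replicate 1 alone. Counted from the lowest difference, Tiprl ranked 75 of the 11882 tested rows. The call that chose Tiprl rests on a large difference and on small gaps within the groups. The gaps and the rank are therefore a description, and nothing is read from them.

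Tiprl was the 1 member of 8 called at an adjusted p under 0.05 in limma, against 0.0589% of all tested rows called lower and 0.219% called in either direction. Because that call chose the set, nothing is read from this count. Of the other 7 members none was called in limma, and 2 of them, Igbp1 and Ppp2cb, had an unadjusted p under 0.05, as did 23.4% of all tested rows. The Tiprl call was lost in 5 of 13 alternatives, among them without PBS replicate 1 (difference -0.85) and without PBS replicate 2 (difference -0.89). Over all 13 the difference lay between -0.92 (0.1 added before the log2) and -0.71 (5 added).

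**Figure D1:**
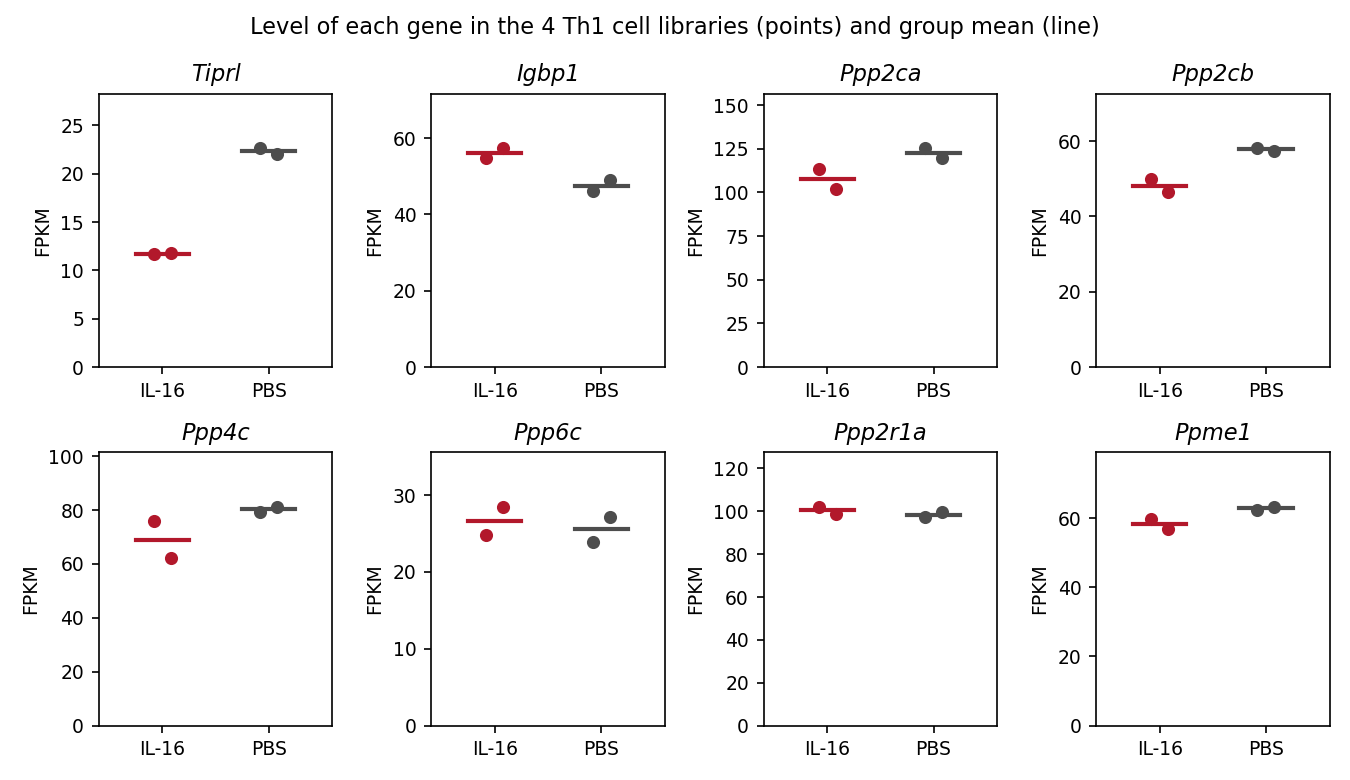
Level in FPKM (vertical axes, each from 0) of the 8 genes in the IL-16 and PBS libraries, with 1 point per library and a line at the group mean. Tiprl lies near 11.7 FPKM in both IL-16 libraries and near 22.3 FPKM in both PBS libraries, while the other genes differ by smaller proportions.

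Igbp1, the other binding protein of the free catalytic subunits, lay on the opposite side. It was 54.9 and 57.3 FPKM with IL-16, against 46.2 and 48.9 FPKM with PBS. The groups did not overlap, and IL-16 was higher, as it was in 24.1% of all tested rows. The means were 56.1 ± 1.72 FPKM with IL-16 and 47.6 ± 1.96 FPKM with PBS (SD, n = 2 each), with a difference of 0.23 in log2(FPKM + 1) (SE 0.072, 95% interval 0.051 to 0.42), which was not called. Its paralogue Igbp1b was listed at 0 in all 4 libraries. The ratio of Igbp1 to Tiprl was 4.71 and 4.85 in the IL-16 libraries, against 2.04 and 2.23 in the PBS libraries. Because the call of Tiprl chose the set, nothing is read from this ratio.

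The catalytic subunit genes of PP2A had lower values in the IL-16 libraries, but neither was called with all 4 libraries. Ppp2ca, the more abundant PP2A catalytic subunit gene and the most abundant of the 8 genes, was 113 and 102 FPKM with IL-16, against 125 and 120 FPKM with PBS. Its difference was -0.19 in log2(FPKM + 1) (SE 0.083, 95% interval -0.39 to 0.024), with -0.26 for IL-16 replicate 2 alone and -0.11 for IL-16 replicate 1 alone. Ppp2cb, which encodes the nearly identical beta isoform, was 49.9 and 46.4 FPKM with IL-16, against 58.1 and 57.5 FPKM with PBS. The groups did not overlap for either gene, as in 34.8% of all tested rows with IL-16 lower, and the Ppp2cb difference was -0.26 (SE 0.073, 95% interval -0.44 to -0.075). The ratio of Ppp2ca to Ppp2cb was 2.27 and 2.20 with IL-16, against 2.16 and 2.08 with PBS, so the IL-16 libraries lay slightly above the PBS libraries. The longest run shared by the coding sequences of these isoforms was 25 bases. Whether reads were split between the isoforms was not tested.

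Ppp4c, the catalytic subunit gene of PP4, a phosphatase of the DNA damage response and of centrosomes, differed between the IL-16 libraries. It was 75.9 and 62.1 FPKM with IL-16, against 79.2 and 81.2 FPKM with PBS. IL-16 replicate 2 lay well below the other 3 libraries and IL-16 replicate 1 lay near PBS, although the groups did not overlap. The difference was -0.22 in log2(FPKM + 1) (SE 0.110, 95% interval -0.50 to 0.057). It was -0.36 with IL-16 replicate 2 alone and -0.078 with IL-16 replicate 1 alone.

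Ppp6c, the catalytic subunit gene of PP6, was the lowest of the 4 and overlapped between the groups. It was 24.7 and 28.5 FPKM with IL-16, against 23.9 and 27.2 FPKM with PBS, and its difference was 0.055 (SE 0.107, 95% interval -0.22 to 0.33). The sign turned when PBS replicate 1 (-0.034) or IL-16 replicate 2 (-0.042) was left out. Without IL-16 replicate 1, limma called Ppp2ca (-0.26), Ppp2cb (-0.31) and Ppp4c (-0.36) lower beside Tiprl, in a fit that called 2065 of all 11882 rows (17.4%).

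Ppp2r1a, which encodes the main scaffold that holds the PP2A trimer together, overlapped between the groups. It was 102 and 98.6 FPKM with IL-16, against 97.2 and 99.7 FPKM with PBS, and its difference was 0.027 (SE 0.068, 95% interval -0.14 to 0.20). Ppp2r1b, the other scaffold gene, was 12.6 and 11.3 FPKM with IL-16, against 15.1 and 13.3 FPKM with PBS. Ppme1 was 59.7 and 57.0 FPKM with IL-16, against 62.4 and 63.3 FPKM with PBS, a difference of -0.11 (SE 0.068, 95% interval -0.28 to 0.066). The methyltransferase gene Lcmt1, whose product opposes Ppme1, was 9.91 and 12.3 FPKM with IL-16, against 11.9 and 11.8 FPKM with PBS. The ratio of Ppme1 to Lcmt1 was 6.02 and 4.63 with IL-16, against 5.24 and 5.38 with PBS, and overlapped between the groups.

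Groups did not overlap in 6 of the 8 genes (5 lower and 1 higher with IL-16) and in 5 of the 7 other than Tiprl (4 lower and 1 higher), against 58.9% of all tested rows in either direction, 34.8% with IL-16 lower and 24.1% with IL-16 higher. Because this contrast chose the set, nothing is read from these counts. The median difference was -0.15 over the 8 genes and -0.11 over the 7 other than Tiprl, against -0.045 over all tested rows.

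**Figure D2:**
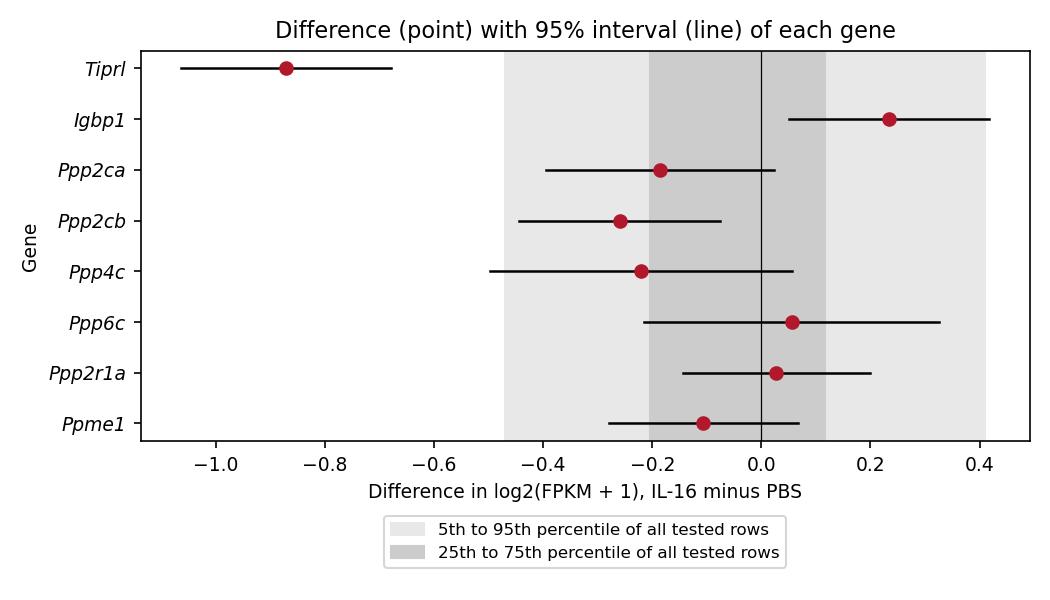
Difference in log2(FPKM + 1), IL-16 minus PBS (horizontal axis), for each of the 8 genes, with its 95% limma interval as a line. Tiprl at -0.87 lies outside the range from the 5th to the 95th percentile of all tested rows (-0.47 to 0.41), and the points of the other 7 genes lie within it.

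Set against the summed RNA level of the catalytic subunit genes, Tiprl was lower and Igbp1 higher with IL-16. These are ratios of RNA levels, and protein levels were not measured in these libraries. The summed level of the 4 catalytic subunit genes was 264 and 239 FPKM with IL-16, against 287 and 286 FPKM with PBS. Per 100 FPKM of these subunits there were 4.42 and 4.94 FPKM of Tiprl with IL-16, against 7.90 and 7.70 FPKM with PBS. The same ratio for Igbp1 was 20.8 and 24.0 FPKM with IL-16, against 16.1 and 17.1 FPKM with PBS. The groups did not overlap in any of these 3 quantities, and single rows did not overlap in 58.9% of all tested rows. Since the 3 quantities rest on the values that chose the set, they are a description. PP2A genes made up 61.9% and 62.1% of the catalytic sum with IL-16, against 64.0% and 62.0% with PBS, PP4 28.8% and 26.0% with IL-16, against 27.6% and 28.4% with PBS, and PP6 9.38% and 11.9% with IL-16, against 8.35% and 9.53% with PBS.

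**Figure D3:**
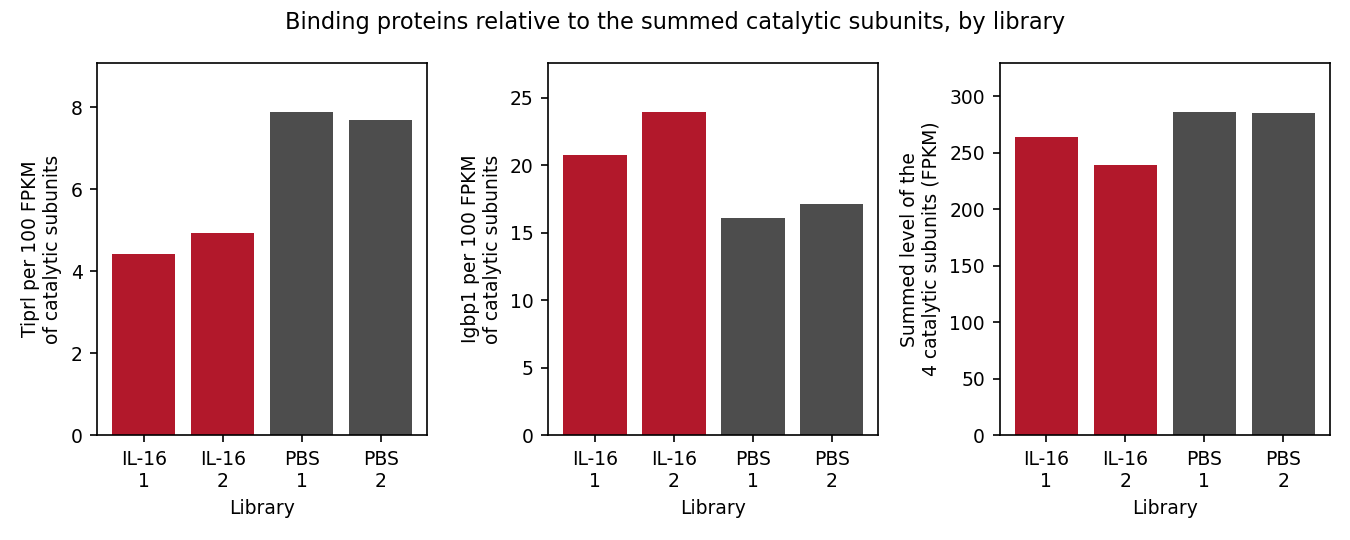
Tiprl and Igbp1 per 100 FPKM of the 4 summed catalytic subunit genes, and that sum in FPKM (vertical axes, from 0), in each IL-16 and PBS library (bars). Tiprl per 100 FPKM of catalytic subunits is 4.42 and 4.94 with IL-16 and 7.90 and 7.70 with PBS, while the Igbp1 bars stand in the opposite order.

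The order of levels by group mean was Ppp2ca, Ppp2r1a, Ppp4c, Ppme1, Ppp2cb, Igbp1, Ppp6c and Tiprl in the PBS libraries, and the PBS values of neighbours in this order did not overlap. In the IL-16 libraries Igbp1 (mean 56.1 FPKM) stood above Ppp2cb (48.2 FPKM), and the remaining order was the same. There the values of Ppp2ca and Ppp2r1a overlapped, as did those of Ppme1 and Igbp1. Tiprl was the lowest of the 8 in all 4 libraries. Its PBS mean still lay above that of 72.3% of all tested rows, and that of Ppp2ca above 96.2%.

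The other genes of these enzymes were taken from lists chosen by function. No gene of the 7 lists was called in limma: of 68 genes, all in the table, 60 were tested, with 0 higher and 0 lower, against 0.16% of all tested rows called higher and 0.0589% called lower. Before adjustment, 2 higher and 11 lower genes had a p under 0.05, against 23.4% of all tested rows (1139 higher and 1646 lower). The median difference over the 60 genes was -0.056, against -0.045 over all tested rows, and groups did not overlap in 34 of them (56.7%; 11 higher and 23 lower), against 58.9% of all tested rows. Without IL-16 replicate 1, limma called 2 of them higher and 10 lower, in the fit that called 17.4% of all rows (765 higher and 1300 lower).

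Of a list of 16 genes, made up of PP2A regulatory subunits, the scaffold gene Ppp2r1b and striatins, 13 were tested, with a median difference of -0.10, and none was called in limma (smallest adjusted p = 0.170; 3 lower and 0 higher at an unadjusted p under 0.05). Ppp2r5a, a subunit of the B56 family, was 47.3 and 41.5 FPKM with IL-16, against 54.5 and 52.7 FPKM with PBS (difference -0.27, limma adjusted p = 0.170; -0.18 without IL-16 replicate 2). The striatin gene Strn3, whose product places PP2A in the STRIPAK complex, was 10.5 and 11.0 FPKM with IL-16, against 12.8 and 12.9 FPKM with PBS (difference -0.24, limma adjusted p = 0.180). Ppp2r3c was 6.60 and 7.48 FPKM with IL-16, against 8.44 and 9.05 FPKM with PBS (difference -0.28, limma adjusted p = 0.201). Ppp2r2b was listed at 0 in all 4 libraries, and Ppp2r2c and Ppp2r3d did not pass the filter.

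Of the regulatory subunits of PP4 and PP6, 10 of 11 were tested and none was called in limma (median difference -0.012; 2 lower and 0 higher at an unadjusted p under 0.05). The lowest was Ankrd44, an ankyrin repeat subunit of PP6, with 26.3 and 28.2 FPKM with IL-16, against 35.9 and 36.1 FPKM with PBS (difference -0.39, limma adjusted p = 0.105). Ppp4r2, a subunit that guides PP4, was 17.7 and 19.0 FPKM with IL-16, against 22.6 and 25.2 FPKM with PBS (difference -0.36, limma adjusted p = 0.125). The groups did not overlap in either gene, as in 34.8% of all tested rows with IL-16 lower. Ppp4r1 had a difference of -0.097 (limma adjusted p = 0.491; -0.064 without PBS replicate 1), and Ppp4r4 did not pass the filter.

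Among the genes for PP2A maturation, Ptpa, which encodes an activator of the catalytic subunit, was 40.9 and 36.0 FPKM with IL-16, against 45.7 and 47.5 FPKM with PBS (difference -0.27, limma adjusted p = 0.167), and Lcmt1 had a difference of -0.091 (limma adjusted p = 0.667). Among the PP2A inhibitors and the kinase that arms some of them, 10 of 11 were tested and none was called in limma (median difference -0.0094; 1 lower and 1 higher at an unadjusted p under 0.05). Ensa, which inhibits PP2A at mitosis once phosphorylated, was 45.4 and 39.1 FPKM with IL-16, against 51.5 and 55.8 FPKM with PBS (difference -0.34, limma adjusted p = 0.148). Anp32a, which encodes an acidic nuclear inhibitor of PP2A, was 122 and 152 FPKM with IL-16, against 104 and 110 FPKM with PBS (difference 0.34, limma adjusted p = 0.183; 0.19 without IL-16 replicate 2). Pabir1, listed under its older symbol Fam122a, had a difference of 0.30 (limma adjusted p = 0.246; 0.18 without IL-16 replicate 2). Within this list the nearest genes to a call therefore lay in opposite directions.

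Among the other catalytic subunits of the PPP phosphatase family, 7 of 9 genes were tested and none was called in limma (median difference -0.033; 2 lower and 0 higher at an unadjusted p under 0.05). Ppp1cb, a catalytic subunit gene of PP1, had the smallest p of the 60 genes and was 31.0 and 30.6 FPKM with IL-16, against 41.9 and 39.9 FPKM with PBS (difference -0.40, limma adjusted p = 0.101). Ppp1cc, also of PP1, was 140 and 118 FPKM with IL-16, against 165 and 165 FPKM with PBS (difference -0.36, limma adjusted p = 0.140; -0.24 without IL-16 replicate 2). The calcineurin gene Ppp3cb had a difference of -0.25 (limma adjusted p = 0.240), with -0.12 for IL-16 replicate 1 alone and -0.38 for IL-16 replicate 2 alone against both PBS libraries.

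The 14 genes of TOR complexes, TOR substrates, the PI3K-related kinases and their assembly factors had a median difference of -0.065, and none was called in limma (2 lower and 1 higher at an unadjusted p under 0.05). Smg1, a kinase gene of nonsense-mediated decay, was 25.5 and 23.9 FPKM with IL-16, against 29.3 and 29.5 FPKM with PBS (difference -0.24, limma adjusted p = 0.158). Eif4ebp1, a translation repressor that TOR inactivates, was 102 and 110 FPKM with IL-16, against 81.8 and 93.1 FPKM with PBS (difference 0.28, limma adjusted p = 0.175; 0.18 without PBS replicate 1). Atr, a DNA damage kinase gene, had a difference of -0.28 (limma adjusted p = 0.193). Of the 4 genes of the MKK7-JNK kinase branch, to which human TIPRL has been linked, none was called in limma or had an unadjusted p under 0.05. Map2k4 had a difference of -0.13 (limma adjusted p = 0.412), Map2k7, which encodes MKK7, one of 0.085 (limma adjusted p = 0.564) and Mapk8 one of -0.082 (limma adjusted p = 0.699).

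**Figure D4:**
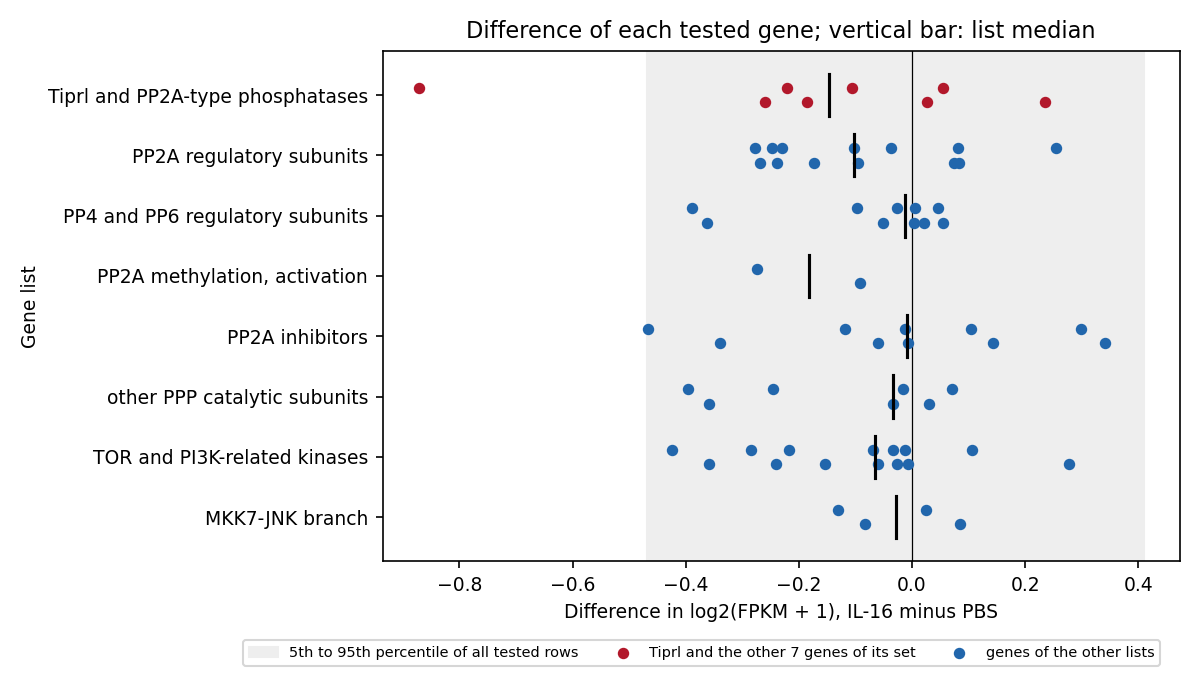
Difference in log2(FPKM + 1), IL-16 minus PBS (horizontal axis), of each tested gene (points) in the Tiprl set and in 7 functional lists, with a vertical bar at each median and the 5th to 95th percentile of all tested rows in grey. The genes of the 7 lists lie between -0.47 and 0.34, and Tiprl stands apart at -0.87.

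The gene next to Tiprl at lower coordinates, Sft2d2, lies on the same strand in the GENCODE annotation of GRCm38 and encodes a membrane protein predicted to act in vesicle transport. It was 27.7 and 26.9 FPKM with IL-16, against 40.2 and 39.2 FPKM with PBS. The groups were well apart, with means of 27.3 ± 0.512 FPKM with IL-16 and 39.7 ± 0.729 FPKM with PBS (SD, n = 2 each), but the gene missed the threshold (difference -0.52, SE 0.069, limma adjusted p = 0.0686). It was called in 2 of 13 alternatives, without IL-16 replicate 1 (difference -0.54, limma adjusted p = 0.0149) and with copy rows summed (difference -0.52, limma adjusted p = 0.0371), and its adjusted p ran from 0.0149 to 0.403 over all 13. On the other side, on the opposite strand, the orphan receptor gene Gpr161 did not exceed 0.042 FPKM in any library. The next genes beyond these, named after their values were seen, were Tbx19, which did not exceed 0.074 FPKM, and Dcaf6, a substrate receptor gene of a ubiquitin ligase, which was 11.8 and 12.5 FPKM with IL-16, against 12.2 and 11.2 FPKM with PBS. Sft2d2 and Tiprl thus both lay lower with IL-16 without overlap, as did 34.8% of all tested rows, while Dcaf6 overlapped between the groups. Whether the counting used strand is not given in the sources used here, so reads of overlapping transcripts on opposite strands may not have been separated. Strand would not separate reads of Sft2d2 from those of Tiprl, which lie on the same strand. Whether these genes shared reads was not tested.

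The rows whose values over the 4 libraries, centred in log2(FPKM + 1), lay nearest to those of Tiprl by Euclidean distance among 10255 named genes were Nr2c2ap (distance 0.068), H3c1 (0.101), Ndufb2 (0.105), Pde3b (0.144) and Kcnh6 (0.144). Ndufb2, a subunit gene of respiratory complex I, was 5.31 and 5.52 FPKM with IL-16, against 9.93 and 10.5 FPKM with PBS. Pde3b, which encodes a cyclic AMP phosphodiesterase, was 23.6 and 21.7 FPKM with IL-16, against 39.4 and 38.8 FPKM with PBS. Nr2c2ap, H3c1 and Kcnh6 did not exceed 3.21 FPKM in any library, and their nearness depended on the value added before the log2. With 0.1 added in place of 1, their differences were -1.15, -1.41 and -1.31, against -0.92 for Tiprl. With 5 added they were -0.35, -0.30 and -0.38, against -0.71 for Tiprl. Ndufb2 (-0.90 with 0.1 and -0.55 with 5) and Pde3b (-0.79 and -0.68) lay closer to Tiprl in both settings. With 4 libraries in 2 groups this nearness describes mainly the step between the groups.

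The promoter windows of Tiprl and Ppp2ca are shown because, of the 7 members with a window in RefSeq (GRCm38.p6), these 2 hold the palindrome TGACGTCA, the full cyclic AMP response element. Each window runs from 250 bases before to 50 bases after the annotated start, 5′ to 3′ on the gene's strand. Capitals mark TGACGTCA and CCGGAAGT, an ETS family motif. The Tiprl window is chr1:165236909-165237208 on the minus strand and the Ppp2ca window chr11:52098574-52098873 on the plus strand.
Tiprl: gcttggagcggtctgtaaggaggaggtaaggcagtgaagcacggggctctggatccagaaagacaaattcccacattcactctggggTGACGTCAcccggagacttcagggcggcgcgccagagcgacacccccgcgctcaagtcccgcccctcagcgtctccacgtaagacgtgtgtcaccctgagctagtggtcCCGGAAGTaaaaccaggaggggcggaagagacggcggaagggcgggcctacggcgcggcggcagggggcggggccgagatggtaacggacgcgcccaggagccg
Ppp2ca: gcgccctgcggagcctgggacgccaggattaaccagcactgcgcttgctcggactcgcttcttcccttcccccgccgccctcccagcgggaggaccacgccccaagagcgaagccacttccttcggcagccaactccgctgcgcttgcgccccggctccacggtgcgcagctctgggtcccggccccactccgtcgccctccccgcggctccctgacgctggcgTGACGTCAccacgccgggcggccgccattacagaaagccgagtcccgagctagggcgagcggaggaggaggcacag

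The palindrome began 163 bases before the start of Tiprl and 26 bases before that of Ppp2ca. Searched on both strands, TGACGTCA was in 588 of 32851 promoter windows of the same length (1.79%) and CCGGAAGT in 1277 (3.89%). Among the 21263 windows of protein-coding genes, TGACGTCA was in 475 (2.23%) and CCGGAAGT in 1094 (5.15%). Tiprl and Ppp4c each had a further window, which overlapped the first and held the same matches. The motifs were chosen after these sequences had been read, and they do not overlap. CCGGAAGT was also in the windows of Ppp4c, Ppp2r1a and Ppme1, so 4 of the 7 members held it. Tiprl and Ppp2ca both lay lower with IL-16, by -0.87 and -0.19, as did Ppp4c and Ppme1, which lack the palindrome. Igbp1 (0.23), Ppp6c (0.055) and Ppp2r1a (0.027), which also lack it, had differences above 0. The matches are a description of these letters only.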

How the data were processed

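Bulk RNA-seq values of 4 libraries were analysed, grouped by the sample titles. Per the submitters' processing notes, fastp, HISAT2, featureCounts and GRCm39 were used. No version is given there, and the tool that made the deposited values is not stated. The deposited FPKM were computed by the authors. Its header gives no unit. Non-integer values and unequal totals led to reading them as FPKM, with column sums of 373924 to 391153. Read depth is unknown.

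Differences were fitted with limma 3.58.1 (R 4.3.3) on log2(FPKM + 1) with variance moderated along a trend and group as covariate, on 11882 rows with at least 1 FPKM in at least 2 libraries. The tests were two-sided, with Benjamini-Hochberg adjustment over all tested rows and a threshold of 0.05. Differences on the log2(FPKM + 1) scale understate the change of low genes. The fit was tested on simulated data. The labels do not say whether replicates are separate mice or cultures, so p-values reflect only the variation among the 4 libraries and may be technical.

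The members and lists were chosen with earlier results of these data known. Named genes are the members, the 3 genes of each list with the smallest p and any that were called, the 5 rows nearest to Tiprl in pattern and the genes beside it in the annotation. All 8 members matched a RefSeq symbol, and 7 had a promoter window. Coding sequences came from GENCODE vM21 and were aligned pairwise. Alternatives covered pseudocount, filter, scaling, copy rows, the replicate block, the trend and each library left out.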

Additional observations from a re-analysis of the deposited data

How the results depend on the processing

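Tiprl was lower with IL-16 in all 13 alternatives, as its groups do not overlap. Its difference was -0.92 with 0.1 and -0.71 with 5 added before the log2. In the alternatives with 1 added it ran from -0.89 without PBS replicate 2 to -0.83 with median-of-ratios scaling. In the alternatives with all 4 libraries the limma adjusted p of Tiprl ran from 0.0174 (copy rows summed) to 0.148 (no filter). Its call and with it the count of called members (0 of 8) was lost without the filter on low values (-0.87, adjusted p = 0.148), without the trend (-0.87, adjusted p = 0.0641) and without PBS replicate 1 or 2 (-0.85 and -0.89). With the replicate block Tiprl had a difference of -0.87 and an adjusted p of 0.0525, with 0 members called. The replicate numbers are only names in the labels, and the deviations of same-numbered libraries correlated with r = 0.00665 across tested rows. Leaving out 1 library, the called members numbered 0 to 4 and the called list genes 0 to 12, the highest of each without IL-16 replicate 1. Over all rows the calls numbered 26 in the fit reported here, 0 without the filter (3068 at an unadjusted p under 0.05), 0 without the trend (2620 at an unadjusted p under 0.05), 53 with median-of-ratios scaling, 40 on the TPM scale, 126 with copy rows summed and 9 to 2065 with 1 library left out. The cause of these changes was not tested. Median-of-ratios scaling moved the median difference of all rows from -0.045 to -0.0037, and the TPM scale moved it to -0.022. With median-of-ratios scaling the differences were -0.14 for Ppp2ca, -0.21 for Ppp2cb, -0.17 for Ppp4c and -0.060 for Ppme1. They were 0.28 for Igbp1, 0.10 for Ppp6c and 0.074 for Ppp2r1a. The sign turned with 1 library left out for Ppp6c (-0.042 to 0.15), Lcmt1 (-0.23 to 0.052) and Dcaf6 (-0.0034 to 0.11), none of them called; for Ppp6c it was -0.034 without PBS replicate 1. Fits that leave out 1 library take the variance of the remaining single library from the other condition.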
